A study of Mus musculus with 18 samples.

Results

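The 9 mouse genes described here write, remove or recognise DNA methylation, and they were taken by name from a table of 54281 genes. They are the DNA methyltransferase genes Dnmt1, Dnmt3a and Dnmt3b, the catalytically inactive family member Dnmt3l, the reader Uhrf1, the dioxygenase genes Tet1, Tet2 and Tet3, and the glycosylase gene Tdg. Each matched 1 row of the table through its gene ID in GENCODE mouse release M21. The choice used gene names only, and no measured value.

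Bulk RNA sequencing had been carried out on cerebral cortex of male C57BL/6J mice and on wild-type R1 mouse embryonic stem cells (mESC, an established line). Cortex came from 4 stages, labelled E17.5, P4, A6w and A18w, and from mice labelled wild type (WT) or Mcph1 knockout (Mcph1KO), with no other allele or agent given. Each of the 9 groups held 2 libraries, made from total RNA, and the sources used here do not describe the Mcph1 allele. Since the labels do not say whether the 2 libraries of a group came from separate animals or cultures, p-values measure only the spread between libraries, which may be technical.

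Several facts of the whole series bear on these genes. Total counts ran from 23531045 to 32041849 per library. Mcph1 itself ran from 8.33 to 12.3 CPM (counts scaled to library size) in the 8 WT cortex libraries and from 11.8 to 16.6 CPM in the 8 libraries labelled Mcph1KO, so its counts showed no loss, and the genotype is written as labelled. Cortical projection neuron markers summed to 1241 to 2782 CPM in cortex and to 4.19 to 16.9 CPM in mESC. Pluripotency markers summed to 6024 to 6887 CPM in mESC and to at most 27.6 CPM in cortex. At A18w the summed level of 6 striatal markers was 1568 and 2038 CPM in the libraries numbered 1, against 437 and 657 CPM in those numbered 2. The A18w libraries thus differed in these markers.

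Methylation of cytosine in CG dinucleotides is copied at each cell division by DNMT1, which UHRF1 brings to the newly replicated strand by binding hemimethylated CG. DNMT3A and DNMT3B set new marks, and DNMT3L stimulates them without catalytic activity of its own. TET enzymes oxidise 5-methylcytosine to 5-hydroxymethylcytosine and beyond, and TDG cuts out the more oxidised bases for replacement by base excision repair. Neurons are known for high 5-hydroxymethylcytosine and for methylation outside CG that DNMT3A deposits after birth.

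On GRCm38 the genes lie on 7 chromosomes. Dnmt1 spans chr9:20907209-20959888 on the minus strand, Dnmt3a chr12:3806007-3914443 on the plus strand and Dnmt3b chr2:153649450-153687730 on the plus strand. Dnmt3l spans chr10:78041947-78063622 and Uhrf1 chr17:56303321-56323486, both on the plus strand. The minus-strand genes Tet1, Tet2 and Tet3 span chr10:62804570-62908996, chr3:133463679-133545139 and chr6:83362373-83459084, and Tdg spans chr10:82629828-82650799 on the plus strand. All are annotated as protein coding.

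The 250 bases before 1 RefSeq transcription start (GRCm38.p6) are shown for the 4 genes whose levels differed by the largest folds between stem cells and E17.5 WT cortex, in either direction. They overlap no annotated exon and are written 5′ to 3′ on the gene's own strand, with every CG dinucleotide, the substrate of these enzymes, in capitals. The windows are chr17:56304063-56304312 (plus) for Uhrf1, chr2:153649199-153649448 (plus) for Dnmt3b, chr10:78049592-78049841 (plus) for Dnmt3l and chr6:83441679-83441928 (minus) for Tet3.
Uhrf1: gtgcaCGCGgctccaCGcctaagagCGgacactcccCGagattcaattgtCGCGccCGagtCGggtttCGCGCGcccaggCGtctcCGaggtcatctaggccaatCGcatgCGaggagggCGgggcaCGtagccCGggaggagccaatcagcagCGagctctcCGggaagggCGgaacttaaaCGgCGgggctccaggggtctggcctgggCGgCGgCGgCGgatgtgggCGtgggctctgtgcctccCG
Dnmt3b: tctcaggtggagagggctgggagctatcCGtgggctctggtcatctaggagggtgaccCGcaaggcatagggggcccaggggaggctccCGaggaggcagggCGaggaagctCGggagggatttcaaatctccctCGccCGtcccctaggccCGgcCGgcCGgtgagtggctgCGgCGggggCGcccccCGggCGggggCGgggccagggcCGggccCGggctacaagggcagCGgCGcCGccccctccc
Dnmt3l: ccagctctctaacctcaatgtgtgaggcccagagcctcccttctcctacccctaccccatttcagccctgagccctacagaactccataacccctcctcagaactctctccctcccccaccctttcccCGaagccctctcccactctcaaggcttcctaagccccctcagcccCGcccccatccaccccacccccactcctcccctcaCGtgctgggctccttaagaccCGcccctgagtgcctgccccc
Tet3: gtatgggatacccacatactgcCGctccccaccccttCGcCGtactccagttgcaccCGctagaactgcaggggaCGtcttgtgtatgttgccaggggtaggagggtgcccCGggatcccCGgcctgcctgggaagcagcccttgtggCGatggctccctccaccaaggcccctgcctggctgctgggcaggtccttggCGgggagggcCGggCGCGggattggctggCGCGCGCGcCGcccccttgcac

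The starts differed in how many CG dinucleotides stood at them, between genes and also within a gene. Windows of 300 bases were counted, from 250 before to 50 after a start. The Uhrf1 window shown held 33 CG, the Dnmt3b window 30, the Tet3 window 22 and the Dnmt3l window 4. The other Uhrf1 window held 12, and the Dnmt1 windows held 33, 12 and 2. The 3 Dnmt3l windows held 3 to 6, below the median of 7 over all 32851 mouse windows, and the single Tet2 window held 57. The letters TTTNNCGC, a loose form of the site of E2F factors, were searched on both strands, and stood in 3 of 16 windows of the 9 genes, against 5.17% of all windows. Those 3 belonged to the maintenance genes. In the Uhrf1 window shown the match is TTTCGCGC, 185 bases before the start. Another Uhrf1 window has TTTCTCGC 56 bases before its start, and 1 Dnmt1 window has 3 matches, of which GCGCGAAA and GCGAAAAA overlap each other. The letters CCAAT stood in 6 of 16 windows (37.4% of all windows) and CACGTG in 3 of 16 (7.15% of all windows), searched on both strands. A match of letters is a description of the sequence and not evidence of binding.

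Transcript levels of 8 of the 9 genes were lower at A6w and A18w than at E17.5, and Dnmt3l, at very low counts, ran the other way. At P4 against E17.5, with genotypes pooled, 5 of the 8 genes that passed the filter on low counts were lower and none was higher, where 17.9% of all genes tested were lower and 18.9% higher. At A6w against P4, 7 of 8 were lower and none higher, beside 27.8% of all genes lower and 27.3% higher. At A18w against A6w, 0 of 8 were called, beside 0.135% of all genes called in either direction. Against E17.5, the average of A6w and A18w was lower for 8 of 8, where 35.5% of all genes were lower and 33.5% higher. Dnmt3l had too few counts in cortex to enter this fit, and went from 0 counts at E17.5 and P4 to 28 counts at A6w and A18w. The median log2 fold change of the 8 genes was -0.57 at P4 against E17.5 and -1.13 at A6w against P4, where the medians over all genes were 0.03 and -0.06. Calls rest on edgeR's quasi-likelihood test with Benjamini-Hochberg adjustment over 19199 genes, at an adjusted p under 0.05, in 1 fit of the 16 cortex libraries, with 4 libraries per stage. CPM are scaled by TMM factors over all 18 libraries, while fold changes come from the fit they belong to. In tissue RNA, fewer cells of a type and less RNA per cell cannot be told apart.

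The first of these steps depended on few libraries. With both E17.5 libraries numbered 1 left out, 2 of the 5 calls at P4 against E17.5 were left (Uhrf1 and Tdg), and there were 2 calls within WT libraries alone and 1 within those labelled Mcph1KO alone. The count was 3 when 1 library was left out, be it E17.5 WT 1, E17.5 Mcph1KO 1, P4 WT 2, P4 Mcph1KO 1 or P4 Mcph1KO 2. The E17.5 libraries numbered 1 had summed proliferation gene levels of 1762 and 1946 CPM, against 1014 and 1177 CPM in those numbered 2, and the part of this difference in the result was not tested beyond leaving them out.

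**Figure D1:**
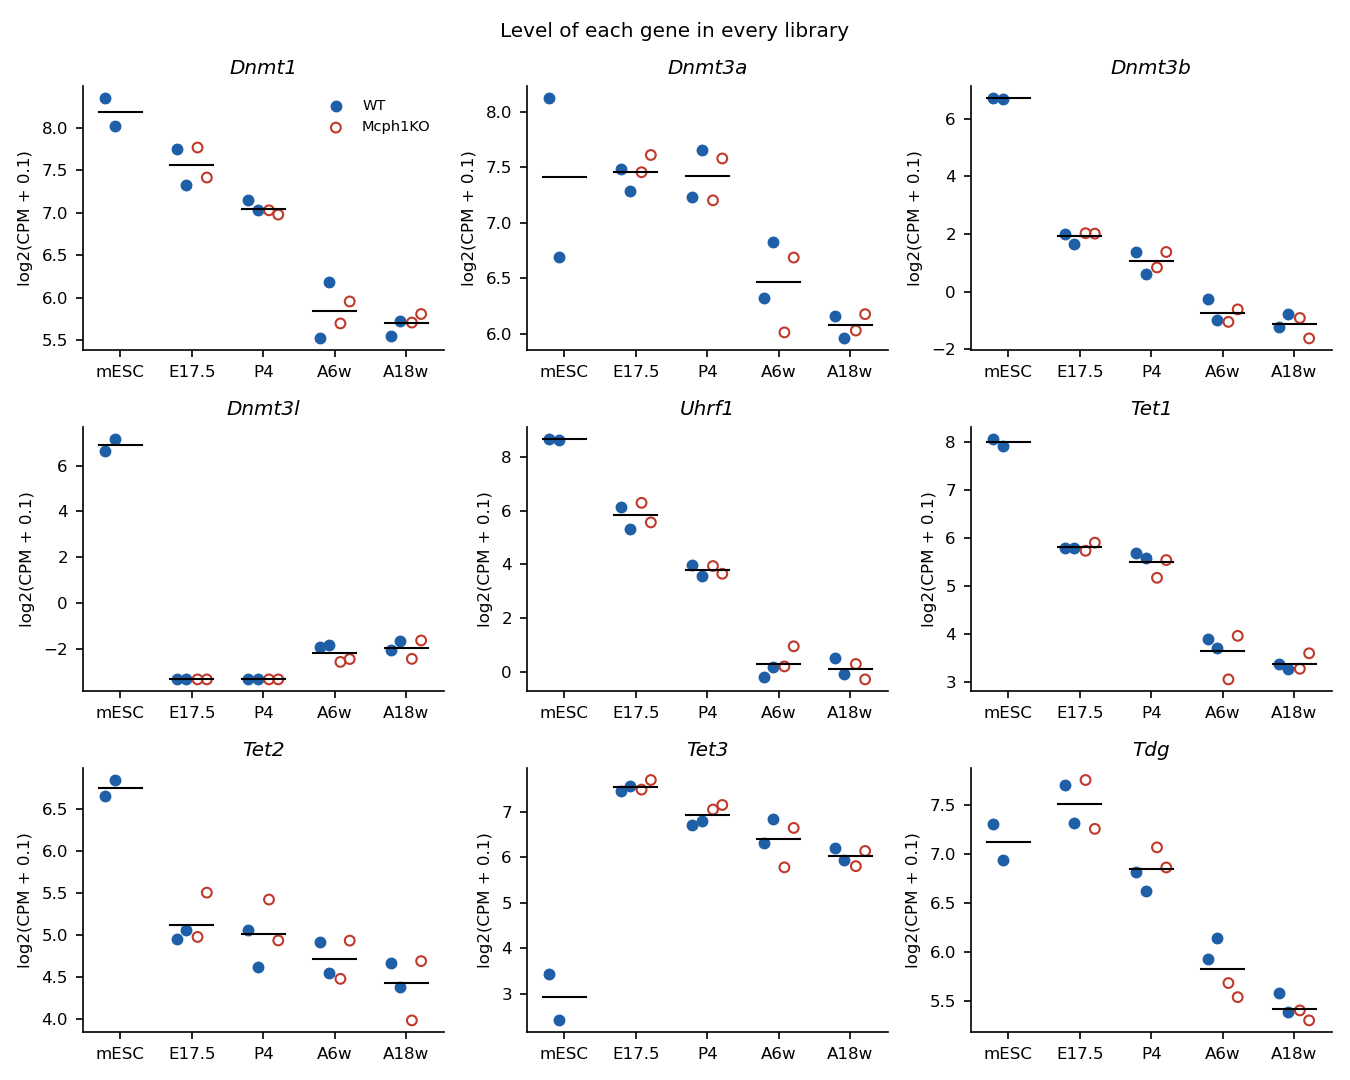
Level of each of the 9 genes in every library, as log2(CPM + 0.1), with CPM scaled by TMM factors over all 18 libraries. Filled points are WT libraries, open points libraries labelled Mcph1KO, and horizontal lines the mean of a stage. Uhrf1 runs from 404.5 to 410.9 CPM in mESC down to 0.718 to 1.83 CPM at A6w and A18w, Dnmt3l sits at 0 counts at E17.5 and P4, and Tet3 is lowest in mESC.

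Uhrf1, the reader that recruits DNMT1 to replicated DNA, had the widest range within cortex, as a fold between its highest and lowest library, of the 8 genes that passed the filter. It was at 70.04 and 39.5 CPM in WT and 78.8 and 47.4 CPM in Mcph1KO libraries at E17.5. At P4 it was at 15.5 and 11.8 CPM in WT and 15.3 and 12.5 CPM in Mcph1KO libraries. The values did not overlap between these stages, and within E17.5 the libraries numbered 1 were the higher ones in both genotypes. At A6w it was at 0.772 and 1.02 CPM in WT and 1.04 and 1.83 CPM in Mcph1KO libraries. At A18w the values were 1.31 and 0.836 CPM in WT and 1.12 and 0.718 CPM in Mcph1KO libraries. The A6w and A18w values overlapped each other and lay below every P4 value. Uhrf1 fell 4.23-fold from E17.5 to P4 (log2 fold change -2.08 ± 0.24 SE, edgeR adjusted p = 7.86e-05) and 12.4-fold from P4 to A6w (-3.63 ± 0.28, edgeR adjusted p = 3.3e-07). The 4 A6w libraries together held 120 Uhrf1 counts and the 4 A18w libraries 89, so these levels carry more counting error than those at E17.5 and P4.

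Dnmt1, the maintenance methyltransferase that UHRF1 recruits, fell as well, by less. It was at 215.8 and 160.7 CPM in WT and 218.1 and 170.7 CPM in Mcph1KO libraries at E17.5. At P4 it was at 141.9 and 130.9 CPM in WT and 130.6 and 126.1 CPM in Mcph1KO libraries. Every P4 value lay below every E17.5 value, and the step was -0.52 ± 0.15 (log2 fold change ± SE, edgeR adjusted p = 0.0175). At A6w Dnmt1 was at 45.8 and 72.8 CPM in WT and 51.8 and 62.0 CPM in Mcph1KO libraries, and A18w gave 46.8 to 55.9 CPM. The later values all lay below every P4 value, and the P4 to A6w step was -1.22 ± 0.15 (edgeR adjusted p = 2.11e-05). The P4 call ended when 1 of several libraries was left out, E17.5 WT 1 (adjusted p = 0.0884) and E17.5 Mcph1KO 1 (adjusted p = 0.078) among them, as did P4 WT 2 (0.0549) and P4 Mcph1KO 2 (0.0539), all by edgeR.

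Dnmt3a, the de novo enzyme that methylates neuronal DNA after birth, had overlapping levels at E17.5 and P4 and lower ones at A6w. It was at 179.1 and 156.3 CPM in WT and 175.4 and 195.3 CPM in Mcph1KO libraries at E17.5, and at 150.7 and 202.0 CPM in WT and 147.2 and 191.1 CPM in Mcph1KO libraries at P4. The stages overlapped, with a log2 fold change of -0.02 ± 0.17 (edgeR adjusted p = 0.94). At A6w Dnmt3a was at 79.9 and 113.7 CPM in WT and 64.6 and 103.0 CPM in Mcph1KO libraries, below every P4 value. That step was -0.97 ± 0.17 (edgeR adjusted p = 0.000302). The A6w libraries numbered 2 were the higher ones in both genotypes, by 1.42-fold and 1.60-fold, and A18w gave 62.2 to 72.4 CPM.

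Dnmt3b, the de novo enzyme of early embryos, was scarce in cortex at every stage. At E17.5 it was at 3.86 and 3.05 CPM in WT and 3.98 and 3.94 CPM in Mcph1KO libraries. P4 gave 2.51 and 1.43 CPM in WT and 1.69 and 2.50 CPM in Mcph1KO libraries, and A6w gave 0.731 and 0.399 CPM in WT and 0.383 and 0.552 CPM in Mcph1KO libraries. The 3 stages did not overlap. The step to P4 was -0.85 ± 0.31 (edgeR adjusted p = 0.0438), and it missed the threshold without a filter on low counts (adjusted p = 0.0712) and when any of 7 of the 8 libraries, all but P4 WT 1, was left out (adjusted p 0.0537 to 0.141). The step from P4 to A6w was -2.01 ± 0.34 (edgeR adjusted p = 0.000223). Its 4 A6w libraries held 53 counts together, and its 4 A18w libraries 33.

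Dnmt3l, the inactive cofactor of the de novo enzymes, had 0 counts in all 8 E17.5 and P4 libraries. A count of 0 over those 8 libraries was given a floor of 0.0124 CPM (3 counts), and its 95% exact Poisson interval reaches 0.0153 CPM. Each of the 8 A6w and A18w libraries held 2 to 5 counts, 28 in all, which is 0.144 CPM (95% exact Poisson interval 0.0959 to 0.209, counting error only). The A6w and A18w level was 11.6 times the level of 3 counts over the E17.5 and P4 libraries, a ratio that leaves out the counting error of the 28 counts. Dnmt3l did not pass the filter in the cortex fit. With no such filter the average of A6w and A18w was called higher than E17.5 (edgeR adjusted p = 0.0103), and A6w higher than P4 (edgeR adjusted p = 0.0363). In a fit of all 18 libraries Dnmt3l passed the filter only through its mESC counts (2273 and 3542). The calls of the same 2 comparisons in that fit (edgeR adjusted p = 0.000155 and 0.0011) are therefore no added support.

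**Figure D2:**
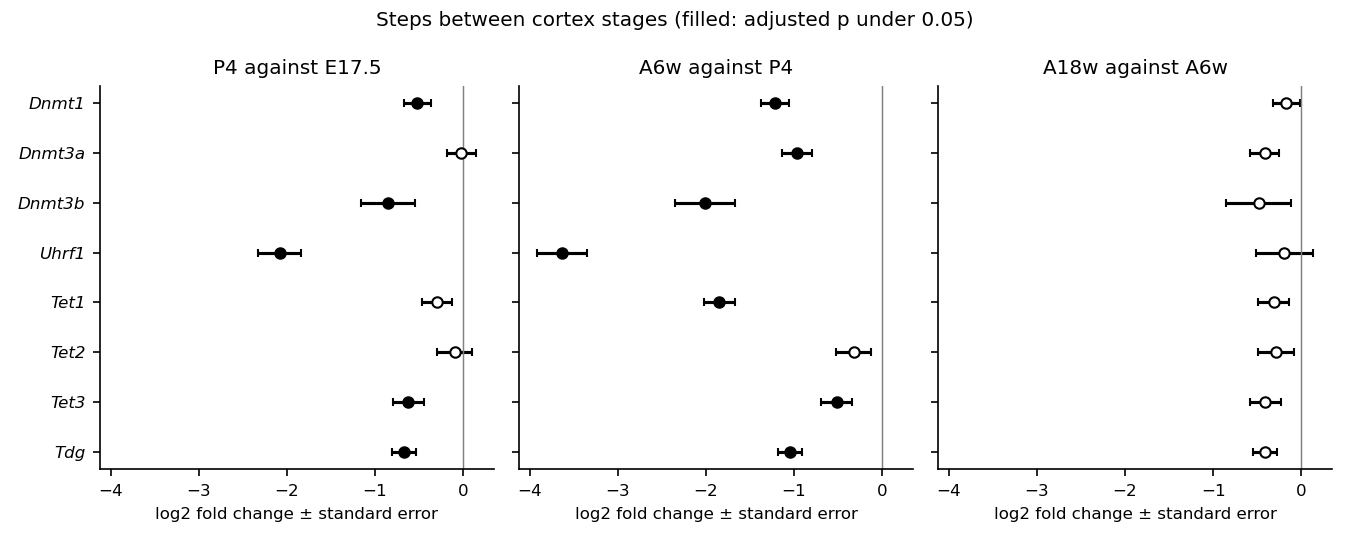
Log2 fold change of 8 genes at each step between cortex stages, with bars of 1 standard error, from the fit of 16 cortex libraries. Filled points passed an adjusted p of 0.05. Uhrf1 has the lowest value at the P4 step (-2.08) and at the A6w step (-3.63), and no point is filled at A18w against A6w.

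Tet1, the dioxygenase of pluripotent and germ cells that carries a CXXC domain, was lower at A6w than at P4. It was at 55.0 and 55.1 CPM in WT and 53.1 and 59.8 CPM in Mcph1KO libraries at E17.5, and at 51.3 and 47.9 CPM in WT and 35.9 and 46.5 CPM in Mcph1KO libraries at P4. Although every P4 value lay below every E17.5 value, the difference did not pass (-0.29 ± 0.17, edgeR adjusted p = 0.188). At A6w Tet1 was at 14.8 and 12.9 CPM in WT and 8.21 and 15.5 CPM in Mcph1KO libraries. It had fallen 3.601-fold from P4 (-1.85 ± 0.18, edgeR adjusted p = 1.74e-06), and A18w gave 9.59 to 12.02 CPM.

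Tet2, the dioxygenase that lacks its own CXXC domain, had the smallest fold changes of the 3 TET genes at both early steps. Its E17.5 values were 30.8 and 33.1 CPM in WT and 31.4 and 45.2 CPM in Mcph1KO libraries. At P4 they were 33.2 and 24.4 CPM in WT and 42.7 and 30.5 CPM in Mcph1KO libraries, and at A6w 30.1 and 23.3 CPM in WT and 22.2 and 30.4 CPM in Mcph1KO libraries. The stages overlapped, and neither step passed (-0.10 ± 0.20, adjusted p = 0.739, and -0.32 ± 0.20, adjusted p = 0.188, both by edgeR). The average of A6w and A18w was lower than E17.5 by -0.56 ± 0.17 on the log2 scale (edgeR adjusted p = 0.00975), a call that ended without E17.5 Mcph1KO 2 (adjusted p = 0.0649) and within WT libraries alone (adjusted p = 0.188).

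Tet3, the dioxygenase of the oocyte and of neural tissue, was the most abundant TET transcript of the cortex. It was at 175.3 and 188.7 CPM in WT and 178.5 and 206.5 CPM in Mcph1KO libraries at E17.5, and at 103.6 and 110.5 CPM in WT and 131.8 and 141.3 CPM in Mcph1KO libraries at P4. These stages did not overlap (-0.62 ± 0.18, edgeR adjusted p = 0.0153, and 0.0505 without P4 Mcph1KO 1). At A6w the values were 78.7 and 114.2 CPM in WT and 54.6 and 99.6 CPM in Mcph1KO libraries, overlapping P4 in 1 WT library. The P4 to A6w step passed by a small margin (-0.52 ± 0.18, edgeR adjusted p = 0.0242). It did not pass without P4 WT 2 (adjusted p = 0.0671), P4 Mcph1KO 2 (0.0634), A6w WT 1 (0.105) or A6w Mcph1KO 1 (0.0962), and within WT libraries alone it was -0.18 (adjusted p = 0.593). The call also ended with all 18 libraries in 1 fit (-0.49, edgeR adjusted p = 0.0717). The average of A6w and A18w was 2.53-fold lower than E17.5 (-1.34 ± 0.15, edgeR adjusted p = 2.54e-06).

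Tdg, whose glycosylase completes the TET route by removing oxidised cytosine, fell at both early steps. At E17.5 it was at 209.0 and 159.5 CPM in WT and 216.2 and 153.0 CPM in Mcph1KO libraries, with the libraries numbered 1 higher in both genotypes. At P4 it was at 112.7 and 98.5 CPM in WT and 134.2 and 116.4 CPM in Mcph1KO libraries, and at A6w at 60.7 and 70.7 CPM in WT and 51.3 and 46.4 CPM in Mcph1KO libraries. The 3 stages did not overlap. The steps were -0.67 ± 0.13 (edgeR adjusted p = 0.00216) and -1.05 ± 0.14 (edgeR adjusted p = 2.55e-05).

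Between the 2 later stages no gene passed. All 8 fold changes at A18w against A6w were below 0 on the log2 scale, from -0.485 ± 0.37 for Dnmt3b to -0.17 ± 0.15 for Dnmt1. The smallest unadjusted p was 0.00982, for Tdg (-0.41 ± 0.14, edgeR adjusted p = 0.366), and those of Dnmt3a (0.0272) and Tet3 (0.0374) were the others under 0.05. With DESeq2 the count was also 0 of 8. On counts simulated at each gene's mean level over the cortex libraries, this comparison recovered 68% of 2-fold and 94% of 4-fold changes. Changes of 2-fold or less may thus be missed. Uhrf1 (1.16 and 0.996 CPM at A6w and A18w) and Dnmt3b (0.516 and 0.366 CPM) lay below their mean levels there, so these percentages do not apply to them.

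Stem cells and embryonic cortex differed in most of these genes. In a fit of the 10 WT libraries over 19466 genes, 6 of 9 genes were higher and 1 was lower in mESC than in E17.5 WT cortex, where 32.7% of all genes were higher and 35.3% lower. Dnmt3l, 1 of these 6, passed the filter of this fit through its mESC counts alone, so its call follows from that entry. Dnmt3l was at 100.4 and 142.8 CPM in mESC and at 0 in E17.5 WT, 2586-fold higher than the level of 3 counts over those 2 cortex libraries. Dnmt3b was at 105.7 and 103.9 CPM in mESC, 31.0-fold above E17.5 WT (4.96 ± 0.34, edgeR adjusted p = 5.86e-07). Both are genes of the de novo machinery of the early embryo, and their mESC values lay far above every cortex value. Uhrf1 was at 410.9 and 404.5 CPM, 7.63-fold higher (2.93 ± 0.30, edgeR adjusted p = 9.79e-06).

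Among the TET genes the direction was split. Tet1 was at 267.1 and 242.5 CPM in mESC, 4.74-fold higher than in E17.5 WT (2.25 ± 0.17, edgeR adjusted p = 1.35e-06). Tet2 was at 100.3 and 114.4 CPM, 3.45-fold higher (1.79 ± 0.22, edgeR adjusted p = 4.37e-05). Tet3, in contrast, was at 10.7 and 5.24 CPM in mESC, 22.4-fold lower than in E17.5 WT (-4.48 ± 0.34, edgeR adjusted p = 1.25e-06). It was the single gene of the 9 that was lower in mESC than in E17.5 cortex by this test.

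Dnmt1, Dnmt3a and Tdg differed little or unevenly between mESC and E17.5 WT. Dnmt1 was at 326.8 and 260.3 CPM in mESC, 0.68 ± 0.25 higher on the log2 scale (edgeR adjusted p = 0.0338). That call ended with total count scaling (0.39, adjusted p = 0.199), with the 4 compared libraries alone (adjusted p = 0.0836), without mESC 1 (adjusted p = 0.162) and without E17.5 WT 2 (adjusted p = 0.239). Dnmt3a was at 278.6 CPM in mESC 1 and 103.4 CPM in mESC 2, a 2.69-fold spread that spanned every E17.5 value. Its difference was 0.22 ± 0.38 (edgeR adjusted p = 0.622), and without mESC 2 it was 0.77 (adjusted p = 0.0301). Tdg was at 158.9 and 122.9 CPM in mESC (-0.35 ± 0.21, edgeR adjusted p = 0.159), and with total count scaling it was called lower (-0.64, adjusted p = 0.0251).

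Against the average of WT A6w and A18w cortex, 8 of 9 genes were higher in mESC and Tet3 was lower, where 36.7% of all genes were higher and 39.5% lower. Dnmt3l, among these 8, again passed the filter through its mESC counts alone. Uhrf1 was 425-fold higher (8.73 ± 0.29, edgeR adjusted p = 8.8e-09) and Dnmt3b 223-fold higher (7.80 ± 0.30, edgeR adjusted p = 1.1e-08). Tet1 was 22.3-fold higher, Dnmt1 5.55-fold, Tet2 4.45-fold, Tdg 2.66-fold and Dnmt3a 2.44-fold. The Dnmt3a call ended without mESC 1 (0.40 on the log2 scale, edgeR adjusted p = 0.165). Tet3 was 9.93-fold lower (-3.31 ± 0.31, edgeR adjusted p = 2.66e-06). The stem cell comparisons share the WT cortex libraries with the stage comparisons, and simulated recovery in them was 14% and 26% of 2-fold changes.

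Genotype made no difference that passed. In the libraries labelled Mcph1KO against WT, 0 of 8 genes were called when stages were averaged, where 0.0521% of all genes were called, and 0 of 8 at each of the 4 stages, where 0% of all genes were called. Averaged over stages, the log2 differences ran from -0.085 ± 0.12 for Tet1 to 0.17 ± 0.20 for Uhrf1. Dnmt1 (0.0051 ± 0.11), Dnmt3a (-0.02 ± 0.12) and Tet3 (0.0012 ± 0.12) lay nearest to 0, and each edgeR adjusted p was 1. The largest single-stage difference was that of Uhrf1 at A6w (0.665 ± 0.44, unadjusted p = 0.155, adjusted p = 1 by edgeR). The only unadjusted p under 0.05 at any stage was that of Tdg at A6w (0.0472, -0.42 ± 0.19, edgeR adjusted p = 1). DESeq2 also called 0 of 8 genes. Genotype by stage gave 0 of 8 as well (smallest unadjusted p 0.141). On simulated counts the averaged comparison recovered 85% of 2-fold changes, and the single-stage comparisons 29% to 37%.

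Levels of different genes can be set side by side only per length, and CPM were therefore divided by the length of each gene's longest GENCODE transcript in kb. In mESC Uhrf1 led with 113.7 ± 1.27 CPM per kb (mean ± SD, n = 2), followed by Dnmt3l (66.8 ± 16.5), Dnmt1 (50.01 ± 8.02) and Tdg (40.2 ± 7.28). Dnmt3l and Dnmt1 overlapped, as did Dnmt1 and Tdg, and with the union of all exons as the length Dnmt1 ranked above Dnmt3l. Tet3 was last in mESC at 0.729 ± 0.350.

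In cortex the same 4 genes led at every stage, in the order Tdg, Dnmt1, Dnmt3a and Tet3, with the exception that Uhrf1 stood above Tet3 at E17.5 when the exon union was used. At E17.5 Tdg was at 52.7 ± 9.36 CPM per kb (n = 4), Dnmt1 at 32.6 ± 5.10, Dnmt3a at 18.2 ± 1.65, Tet3 at 17.2 ± 1.29 and Uhrf1 at 16.4 ± 5.16. The last 3 overlapped one another. At A18w Tdg was at 12.2 ± 1.03, Dnmt1 at 8.84 ± 0.646, Dnmt3a at 7.001 ± 0.502 and Tet3 at 5.99 ± 0.754, and Dnmt3a and Tet3 overlapped. Uhrf1 moved from rank 5 at E17.5 to rank 7 at A6w, where it was at 0.325 ± 0.128 CPM per kb, below Tet2 (2.89 ± 0.476) and Tet1 (0.895 ± 0.229) without overlap.

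The makeup of the TET family differed between stem cells and cortex. Of the summed TET level per length, Tet1 made up 58.8% ± 3.09 in mESC (SD, n = 2) and 15.6% ± 0.673 at E17.5 (n = 4). Tet2 made up 38.8% ± 4.21 in mESC and 15.3% ± 1.53 at E17.5, and Tet3 2.41% ± 1.12 and 69.1% ± 1.05. The ranges of the 2 stages did not overlap for any of the 3. Within cortex the Tet3 share stayed between 57.0% and 75.3% in every library, while the Tet1 share was 17.9% ± 3.90 at P4 and 7.63% ± 1.08 at A6w and the Tet2 share 19.8% ± 3.72 and 25.4% ± 5.31.

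The DNA methyltransferase transcripts were spread over 4 genes in mESC and lay mainly in Dnmt1 and Dnmt3a in cortex. In mESC, Dnmt3l made up 41.7% ± 11.4 of the summed level per length, Dnmt1 31.1% ± 4.09, Dnmt3b 15.1% ± 0.255 and Dnmt3a 12.2% ± 7.61. At E17.5, Dnmt1 made up 62.9% ± 3.76 and Dnmt3a 35.5% ± 3.67, with Dnmt3b at 1.66% ± 0.106. At A6w, Dnmt1 and Dnmt3a were near equal, at 51.2% ± 3.77 and 47.8% ± 3.55, and overlapped in range. The mESC ranges of Dnmt3l and Dnmt1 overlapped as well. With the union of all exons as the length, the mESC shares were 33.9% for Dnmt3l and 34.2% for Dnmt1.

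**Figure D3:**
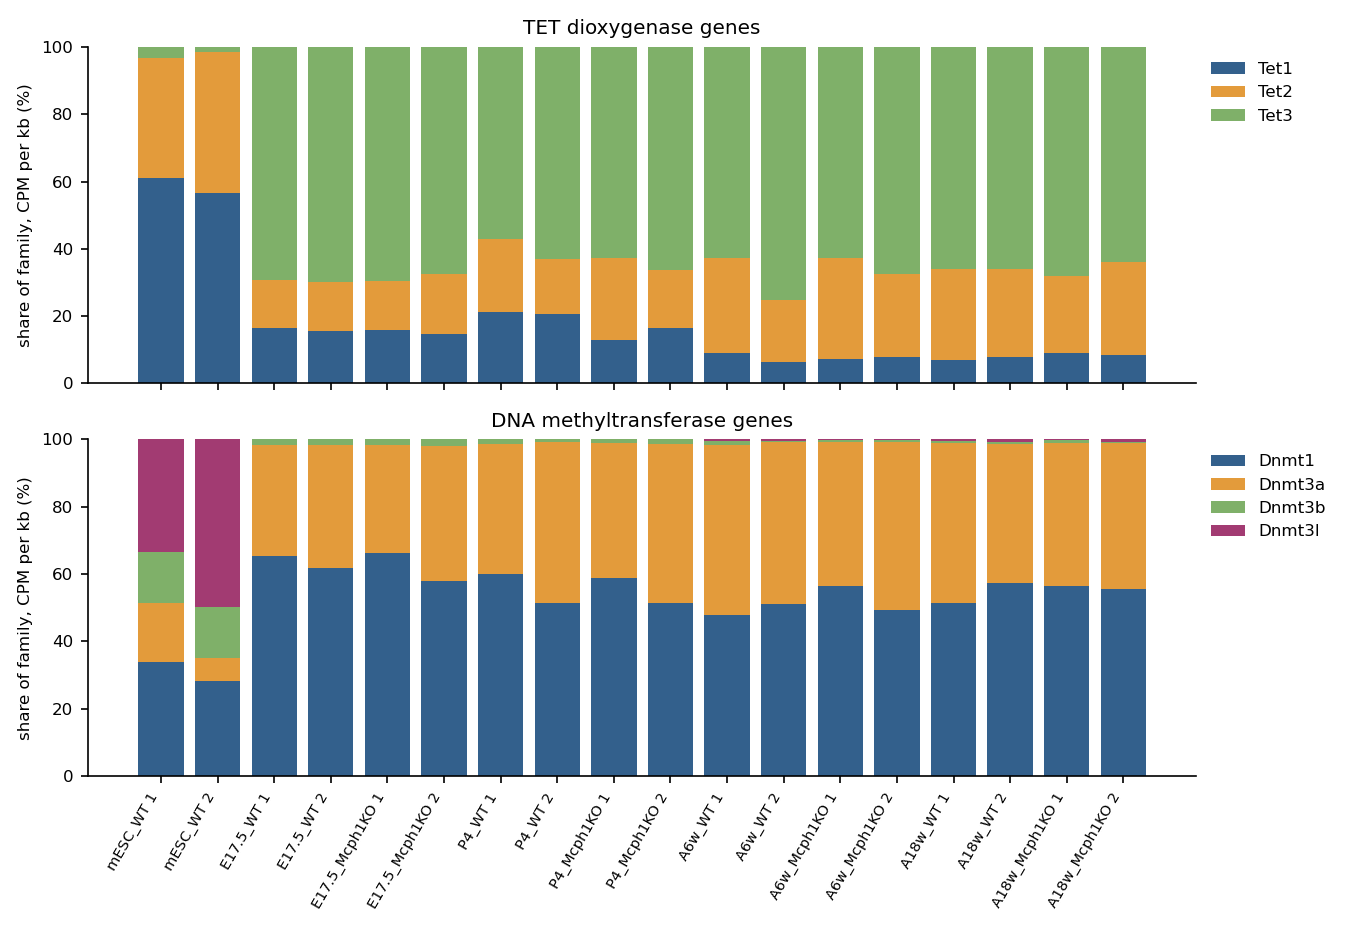
Share of each gene in the summed level of the TET genes (upper) and of the DNA methyltransferase genes (lower), in percent of CPM per kb of the longest transcript, with 1 bar per library. Tet1 and Tet2 fill the mESC bars and Tet3 holds 57.0% to 75.3% of every cortex bar, while Dnmt3b and Dnmt3l are visible in mESC and make up under 2% each in cortex.

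Ratios of counts within a library do not depend on how libraries are scaled. The ratio of Uhrf1 to Dnmt1 was 1.26 and 1.55 in mESC, had a median of 0.301 at E17.5 (0.246 to 0.361), of 0.104 at P4 (0.0902 to 0.117) and of 0.0185 at A6w (0.0140 to 0.0295). The stages from mESC to A6w did not overlap, and the mean ratio was 2.90-fold lower at P4 than at E17.5 and 5.34-fold lower at A6w than at P4. The ratio of Dnmt3a to Dnmt3b was 2.64 and 0.995 in mESC, 44.0 to 51.2 at E17.5, 60.1 to 141 at P4 and 109 to 285 at A6w. Its median was higher at each later stage up to A6w, and the P4 and A6w ranges overlapped.

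Among the TET genes the ratios to Tet1 were highest at A6w and A18w. The ratio of Tet2 to Tet1 was 0.559 to 0.757 at E17.5, 0.509 to 1.19 at P4 and 1.81 to 2.70 at A6w. The ratio of Tet3 to Tet1 was 3.18 to 3.46 at E17.5, 2.02 to 3.67 at P4 and 5.31 to 8.86 at A6w, against 0.0216 and 0.0399 in mESC. Eraser against writer, the ratio of Tet3 to Dnmt3a was 0.978 to 1.21 at E17.5, 0.547 to 0.896 at P4 and 0.846 to 1.01 at A6w. The P4 libraries were thus lower than the E17.5 libraries in this ratio, by 0.59 on the log2 scale.

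No ratio passed after adjustment. With 4 libraries against 4 the smallest p of the two-sided exact permutation test over 70 splits is 0.0286. It was reached for 6 of the 18 comparisons (6 ratios at 3 steps): Uhrf1 to Dnmt1 at P4 and at A6w, Dnmt3a to Dnmt3b at P4, Tet2 to Tet1 and Tet3 to Tet1 at A6w, and Tet3 to Dnmt3a at P4. The Benjamini-Hochberg adjusted exact permutation p was 0.0857 for each of them. At this floor no comparison could pass unless several more of the 18 reached it too. The lack of a pass is therefore no evidence that these ratios were unchanged. None of the 6 ratios differed by genotype in an exact permutation of labels within stages, over every labeling, with unadjusted p from 0.275 to 0.923.

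**Figure D4:**
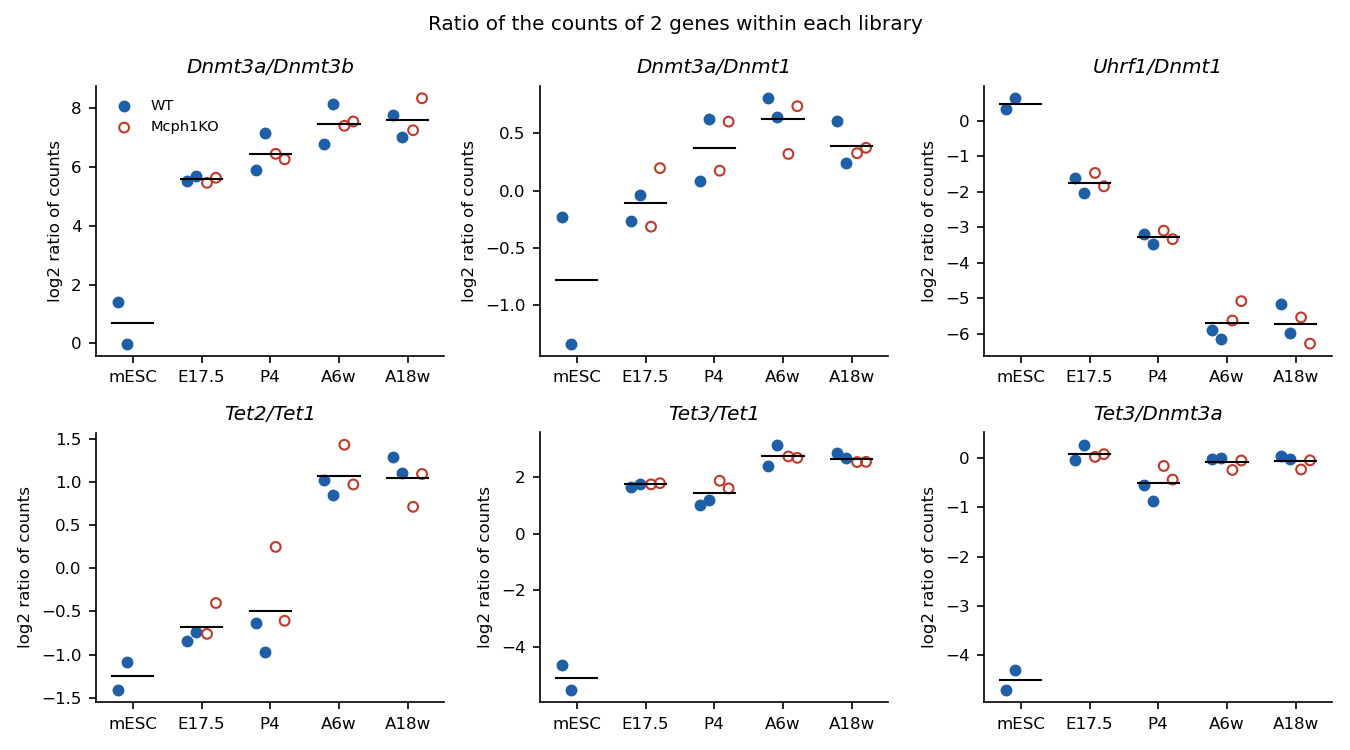
Log2 ratio of the counts of 2 genes in each library, for 6 pairs, with filled points for WT, open points for libraries labelled Mcph1KO and lines for the stage mean. Uhrf1 to Dnmt1 goes from a mean of -1.74 at E17.5 to -3.28 at P4 and -5.69 at A6w, and Tet2 to Tet1 is above 0 in every A6w and A18w library.

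Genes of DNA replication and mitosis were lower at the same steps as Uhrf1. The 24 proliferation genes were replication and mitosis genes such as Top2a, Pcna, Mcm5 and Mcm6. At P4 against E17.5, 24 of 24 were called lower, beside 17.9% of all genes. At A6w against P4, 22 were called lower and 1 higher, beside 27.8% and 27.3% of all genes. The higher one was E2f1, a regulator of S phase genes (0.78 on the log2 scale, named after its value was seen). For A6w and A18w averaged against E17.5, 23 were called lower, beside 35.5% of all genes. The median log2 fold changes of the 24 genes were -1.53, -2.44 and -4.09, beside 0.03, -0.06 and -0.04 over all genes. Their summed level was 7873 and 9374 CPM in mESC, 1014 to 1946 CPM at E17.5, 478 to 606 CPM at P4, 138 to 165 CPM at A6w and 151 to 177 CPM at A18w. Uhrf1 fell at the P4 step by more than the median of this list (-2.08), and Dnmt1 by less (-0.52). The part of cell division in the members' changes was not tested.

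Markers of cell types moved too, and not all of the 16 cell type lists are described here. Of 5 intermediate progenitor markers, 5 were called lower at P4 against E17.5, beside 17.9% of all genes. The sum of these markers went from 311 to 541 CPM down to 31.9 to 74.0 CPM. At A6w and A18w averaged against E17.5, 6 of 6 astrocyte markers and 7 of 8 oligodendrocyte lineage markers were called higher. The share over all genes was 33.5%. Astrocyte markers summed to 293 to 414 CPM at E17.5 and 4316 to 5434 CPM at A6w. Oligodendrocyte lineage markers summed to 117 to 213 CPM at E17.5 and 3871 to 6741 CPM at A6w. Their part in the levels of the 9 genes was not tested.

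**Figure D5:**
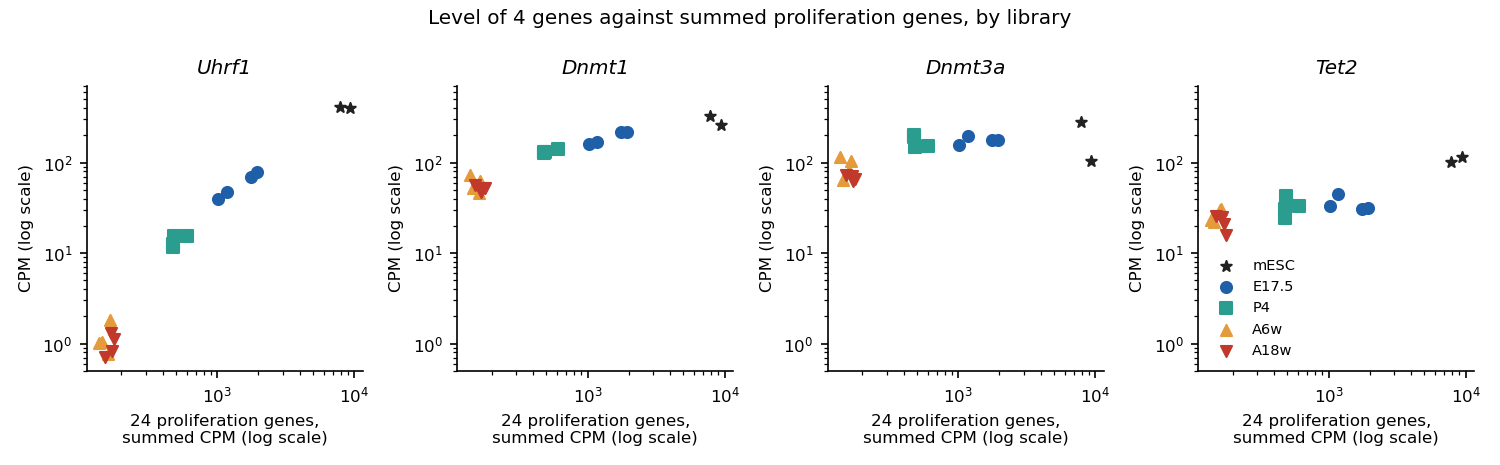
Level of Uhrf1, Dnmt1, Dnmt3a and Tet2 (CPM, log scale) against the summed CPM of 24 proliferation genes (log scale) in each of 18 libraries, by stage. Uhrf1 spans 0.718 to 410.9 CPM along this axis, while Tet2 spans 15.7 to 114.4 CPM.

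Other genes of the pathway were counted in 4 lists. Of 10 other methylation readers, 3 were higher and 4 lower at A6w and A18w averaged than at E17.5, near the 33.5% higher and 35.5% lower of all genes, with a median log2 fold change of -0.23 beside -0.04 over all genes. At P4 against E17.5, 1 was higher and 4 lower (18.9% and 17.9% of all genes), and at A6w against P4, 3 were higher and 1 lower (27.3% and 27.8% of all genes). Zfp57, which holds methylation at imprinted loci, fell (-4.89, with means of 93.6 CPM at E17.5, 4.01 CPM at A6w and 2.58 CPM at A18w), and Zbtb33, the gene of the reader KAISO, fell by 0.86 on the log2 scale. Zbtb4 (2.58) and Mbd2 (1.02), both readers of methylated CG, rose.

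The 16 genes listed under base excision repair include other glycosylase genes and Gadd45 genes. Of these 16, 2 were higher and 10 lower at A6w and A18w averaged than at E17.5 (median -0.81), beside 33.5% of all genes higher and 35.5% lower. At P4 against E17.5 0 were higher and 8 lower (18.9% and 17.9% of all genes), and at A6w against P4 4 were higher and 6 lower (27.3% and 27.8% of all genes). Lig3, a DNA ligase, fell (-1.82), as did the glycosylase Neil3 (-3.41) and the abasic endonuclease Apex1 (-1.48), while Gadd45b, linked to active demethylation, rose (2.79). In mESC against E17.5 WT, 11 of the 16 were higher and 1 lower (32.7% and 35.3% of all genes), with Ung (3.63), Neil2 (3.28) and Parp1 (2.58) among the higher ones and Gadd45g (-4.87) lower.

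Of 18 partners and recruitment factors 17 passed the filter, and 14 were lower and 1 higher at A6w and A18w averaged than at E17.5 (median -1.13), beside 35.5% of all genes lower and 33.5% higher. The H3K9 methyltransferase genes Ehmt1 (-2.30) and Setdb1 (-1.59), the corepressor gene Trim28 (-1.78) and the histone demethylase gene Kdm1b (-2.10) fell. At P4 against E17.5, 9 of 17 were lower and 1 higher (17.9% and 18.9% of all genes), and at A6w against P4, 13 were lower and 1 higher (27.8% and 27.3% of all genes). The falls at P4 included Hells (-1.72) and Cdca7 (-2.09), whose proteins remodel chromatin for methylation. Of 15 genes of the methyl donor cycle, which supplies S-adenosylmethionine and includes the isocitrate dehydrogenases that make the TET cofactor, 4 were higher and 6 lower at A6w and A18w averaged than at E17.5 (median -0.18), near the 33.5% and 35.5% of all genes. At P4 against E17.5, 3 were higher and 8 lower (18.9% and 17.9% of all genes), and at A6w against P4, 8 were higher and 5 lower (27.3% and 27.8% of all genes). Mat2b (1.99), Ahcyl2 (2.16) and Ahcyl1 (1.27) rose, and Idh1 fell (-3.01). No gene of these 4 lists was called by genotype.

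The genes whose pattern across the 16 cortex libraries was most like each of the 8 members that passed the filter were found by Pearson's r of log2 CPM, over genes of mean CPM of at least 1. Uhrf1 was most like Mcm3 (0.995), a replication helicase subunit, Kif2c (0.994), a mitotic kinesin, and Sephs1 (0.993). Dnmt1 was most like Tpm4 (0.995), Dhx9 (0.99) and Dynlt1f (0.99), and Dnmt3b most like Ptx3 (0.986), Knl1 (0.985), a kinetochore gene, and Igfbpl1 (0.984). Dnmt3a was most like Camsap1 (0.979), Cask (0.969) and Eprs (0.969). Tet1 was most like Stk36 (0.989), Fbn2 (0.988) and Kidins220 (0.988), Tet3 most like Dot1l (0.964), Prrc2b (0.964) and Pcnx3 (0.963), and Tdg most like Gmeb1 (0.989), Map4k4 (0.986) and Zfp608 (0.984). Tet2 had the weakest best match, Crebbp at 0.921, before Hif3a (0.897) and Zfp398 (0.896). The 16 libraries fall into stages, and any gene that moves with stage shares that with the members, so these values describe likeness over stage and have no test.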

How the data were processed

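RNA sequencing libraries of 2 mESC and 16 cortex samples had been prepared with an NEBNext Ultra RNA kit from 1 µg of RNA and run on an Illumina HiSeq, per the labels' protocols; cortex homogenate was divided between DNA and RNA extraction. The deposited table holds 1 estimated count per gene and library. The authors obtained each estimated count with Salmon 1.4.0, following Trimmomatic 0.39 and FastQC, with GRCm38.p6 as the build, per the submitters' processing notes. They came as whole numbers for 54281 genes, so no rounding was needed, and the estimate divides a read that fits several genes among them. GENCODE M21 gave symbols for 54107 gene IDs.

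Testing used edgeR 4.0.16 (R 4.3.3). Genes passed filterByExpr at a minimum count of 10 and a minimum total of 15, libraries were scaled by TMM, and each group had its own mean in a quasi-likelihood model. One fit held the 16 cortex libraries (19199 genes, 8 residual df). Another held the 10 WT libraries and served the comparisons with mESC (19466 genes, 5 residual df). The SE is the log2 fold change divided by the square root of F. The fits were tested on simulated counts over the same genes, each at its mean level over the libraries of the fit. Recovery is given beside the results that need it, and does not cover genes far below that mean at a stage. Ratios were tested by exact permutation with scipy 1.17.1. Promoter windows came from RefSeq (GRCm38.p6), and all 9 genes matched. The depth of each library sets the counting error, and a count of 0 was given a floor of 3 counts over the group.

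Sample labels gave the groups and the replicate numbers. Alternatives were DESeq2 1.42.0, other scalings, no filter, the replicate number as a block, 1 genotype alone, all 18 libraries, only the libraries compared, each library left out, and, chosen after seeing the data, both libraries of 1 number and the exon union length. The members, lists, tests and remaining alternatives were chosen with earlier results of these data known, so their agreement with those results is not independent support. The text names all 9 members. From the 4 pathway lists it names up to 4 called genes of smallest adjusted p per comparison described, from the proliferation list up to 4 by mean CPM, and for each member that passed the filter in cortex, which leaves out Dnmt3l, the 3 genes of most like pattern. One gene of the reader list is not reported here.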

Additional observations from a re-analysis of the deposited data

Results flagged for a closer look

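The range of each gene at each cortex stage was searched for a library far from the others of its stage, in 36 sets of 4 libraries, and chance alone flags about 1 set in 20. Dnmt3b was at 3.05 CPM in E17.5 WT 2, below the 3.86, 3.94 and 3.98 CPM of the other E17.5 libraries, with a gap of 0.863 of the whole range. Tet2 was at 45.2 CPM in E17.5 Mcph1KO 2, above the 30.8, 31.4 and 33.1 CPM of the others, with a gap of 0.836 of the range. These are 2 of 36 sets.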

How the results depend on the processing

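Counts of called members were within 1.5 times the reported count in 214 of 222 recomputations. Most of the 222 were of a reported count of 0 that stayed at 0, so this tally says little about the calls themselves. The exception was P4 against E17.5, whose 5 calls became 2 with WT libraries only, 1 with libraries labelled Mcph1KO only, 2 with both E17.5 libraries numbered 1 left out (chosen after seeing the data), and 3 to 5 when each library was left out in turn. Of the fold changes and ratios of single genes, 1696 kept their side of the threshold, 36 lost the call and 3 gained it. No called change reversed its direction. Differences that were not called could change sign. Dnmt3a at P4 against E17.5, for example, ran from -0.13 to 0.06 on the log2 scale with each library left out in turn. Total count scaling moved the median of all genes from -0.059 to -0.282 at A6w against P4, from -0.039 to -0.302 for A6w and A18w averaged against E17.5, and from -0.063 to -0.359 for mESC against E17.5 WT. It gave 4067 higher and 7138 lower genes at A6w against P4 (5244 and 5340 with TMM), 5188 and 8383 for the average (6435 and 6810) and 5323 and 7678 for mESC (6367 and 6863). Tet2 at A6w against P4 (-0.55, adjusted p = 0.0419) and Tdg in mESC (-0.64, adjusted p = 0.0251) were called by edgeR with that scaling only, and their values include its shift. With each library left out in turn, 0 ratios between genotypes passed, and ratios between stages were recomputed as values without a test. Depth limits Uhrf1, Dnmt3b and Dnmt3l at A6w and A18w.

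With the replicate number as a block, 5 members were called at P4 against E17.5, 7 at A6w against P4 and 8 for A6w and A18w averaged against E17.5, the counts reported without it, and no other call changed. In the comparisons between stages and with mESC this block was a single difference between numbers, shared by all stages. It cannot take up a difference between numbers that is particular to a stage, such as that in proliferation genes at E17.5. Each group holds 2 numbers, and same-numbered WT and Mcph1KO libraries deviated together with correlations of 0.478 at E17.5, 0.209 at P4, 0.083 at A6w and 0.295 at A18w. The labels tie no number to a shared animal or day.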
